A study of Mus musculus with 10 samples.

Results

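The TSC22 domain family was followed in platelets sorted from mouse blood by the presence or absence of the red fluorescent protein Tomato. The family comprises 4 genes among 23420 rows of the deposited table, Tsc22d1, Tsc22d2, Tsc22d3 and Tsc22d4. Tsc22d1 was chosen by its mean level over all libraries, as one of the 10 most abundant rows, and the others as its paralogs. Its abundance is therefore given as a description. In all, 5 Tomato+ libraries were set against 5 Tomato- libraries, all from peripheral blood of adult mice, made from polyadenylated RNA by a full-length amplification method (Smart-seq+). The sources used here do not give the strain, the genotype, the promoter that drives Tomato or any pooling of animals. Nothing states that the libraries of a group are separate animals, so p-values measure the spread between libraries, which may be technical.

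Platelets have no nucleus and carry messenger RNA left by the megakaryocyte that shed them. TSC22 proteins share a C-terminal TSC box followed by a leucine zipper, through which they form dimers, and several of the genes produce long and short forms from different starts. Tsc22d1 was first described as a transcript induced by transforming growth factor beta (TGF-beta). Tsc22d3, also called GILZ, is induced by glucocorticoids and restrains NF-kappaB and AP-1. Long forms of the family bind the pseudokinase NRBP1 and WNK kinases, which control ion transport and cell volume.

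Because the 4 genes descend from a common ancestor, a coding stretch that they share is shown first. The stretch is the 120 bases, in frame and without gaps, with the most positions equal in all 4 genes near the ends of their coding sequences, read from GENCODE M21 transcripts on GRCm38. Capitals mark the 75 positions (62.5%) at which all 4 genes have the same base.
Tsc22d1: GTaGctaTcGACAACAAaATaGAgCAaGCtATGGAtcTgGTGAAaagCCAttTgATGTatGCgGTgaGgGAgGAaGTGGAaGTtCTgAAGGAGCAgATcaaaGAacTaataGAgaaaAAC
Tsc22d2: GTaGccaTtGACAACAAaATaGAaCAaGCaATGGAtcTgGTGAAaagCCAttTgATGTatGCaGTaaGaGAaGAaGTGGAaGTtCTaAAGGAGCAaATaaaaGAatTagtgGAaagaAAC
Tsc22d3: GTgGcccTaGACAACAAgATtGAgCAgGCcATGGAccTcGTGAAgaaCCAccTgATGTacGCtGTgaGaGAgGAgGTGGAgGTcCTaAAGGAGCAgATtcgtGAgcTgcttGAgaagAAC
Tsc22d4: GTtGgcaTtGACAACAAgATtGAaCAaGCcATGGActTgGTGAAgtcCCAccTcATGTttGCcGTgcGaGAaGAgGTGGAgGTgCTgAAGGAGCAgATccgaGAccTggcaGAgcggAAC
The stretch spans 2 exons in each gene: chr14:76505265-76506503 on the plus strand for Tsc22d1, chr3:58459350-58460094 on the plus strand for Tsc22d2, chrX:140541021-140542137 on the minus strand for Tsc22d3, and chr5:137758700-137759153 on the plus strand for Tsc22d4. Relative to Tsc22d1, 104 of the 120 bases were equal in Tsc22d2, 90 in Tsc22d3 and 87 in Tsc22d4. The longest run of identical bases between any annotated transcripts of Tsc22d1 and Tsc22d2, on either strand, was 32 bases and lay inside this stretch. For the other pairs of genes it was 14 to 18 bases. It lay inside the stretch for Tsc22d3 and Tsc22d4, but not for the remaining pairs. The stretch printed for Tsc22d1 is present in 4 of its 9 complete coding transcripts, and that of Tsc22d4 in 2 of 5.

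Tsc22d1 lies on chromosome 14 (76414961 to 76507765, GRCm38) and has 16 annotated transcripts, of which 10 are protein-coding. Tsc22d2 lies on chromosome 3 (58414715 to 58466783), Tsc22d3 on chromosome X (140539528 to 140600659) and Tsc22d4 on chromosome 5 (137745730 to 137768450). No other annotated gene overlaps any of the 4. The counts are summed per gene, so long and short forms cannot be told apart in these values.

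Libraries held 5411417 to 16179973 counts and 807 to 2450 genes with a count, and 3 of them, Tomato- replicates 1, 2 and 5, had under 1000 such genes. All 10 platelet markers examined, among them Pf4, Ppbp and Itga2b, had counts in every library, and they summed to 46390.4 to 62521 counts per 1000000 (CPM) in Tomato+ and 50480.3 to 65967 CPM in Tomato-. Among markers of other blood cells, 4 of 5 for B cells, 4 of 5 for T and NK cells, 4 of 6 for neutrophils and 3 of 5 for monocytes were at 0 in all libraries. Only 20% of all 23420 genes in the table had a count in any library. Markers at 0 therefore do not measure the purity of the sort. Lyz2, an abundant lysozyme transcript of myeloid cells, was present in every library (5881 to 9029 CPM), whereas Csf1r, which marks monocytes, was at 0. Red cell markers summed to 1.38 to 338 CPM in Tomato+ and 47.7 to 3440.2 CPM in Tomato-, mostly from the globin gene Beta-s.

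Tsc22d1 was one of the most abundant transcripts of both platelet fractions, and its level did not differ detectably between them. It had 27634, 19941, 27754, 24747 and 22789 CPM in Tomato+ replicates 1 to 5, against 33546, 31873, 31531, 23509.9 and 17334 CPM in Tomato- replicates 1 to 5. Tomato- replicates 1, 2 and 3 lay above all Tomato+ libraries, but the lowest value of the series was also Tomato-, so the groups overlapped. The mean was 24573 ± 3323 CPM in Tomato+ and 27559 ± 6913 CPM in Tomato- (SD, n = 5 each), which is 2.46 ± 0.332% and 2.76 ± 0.691% of all counts. In bulk platelets, fewer cells holding a transcript and less of it per cell cannot be told apart.

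**Figure D1:**
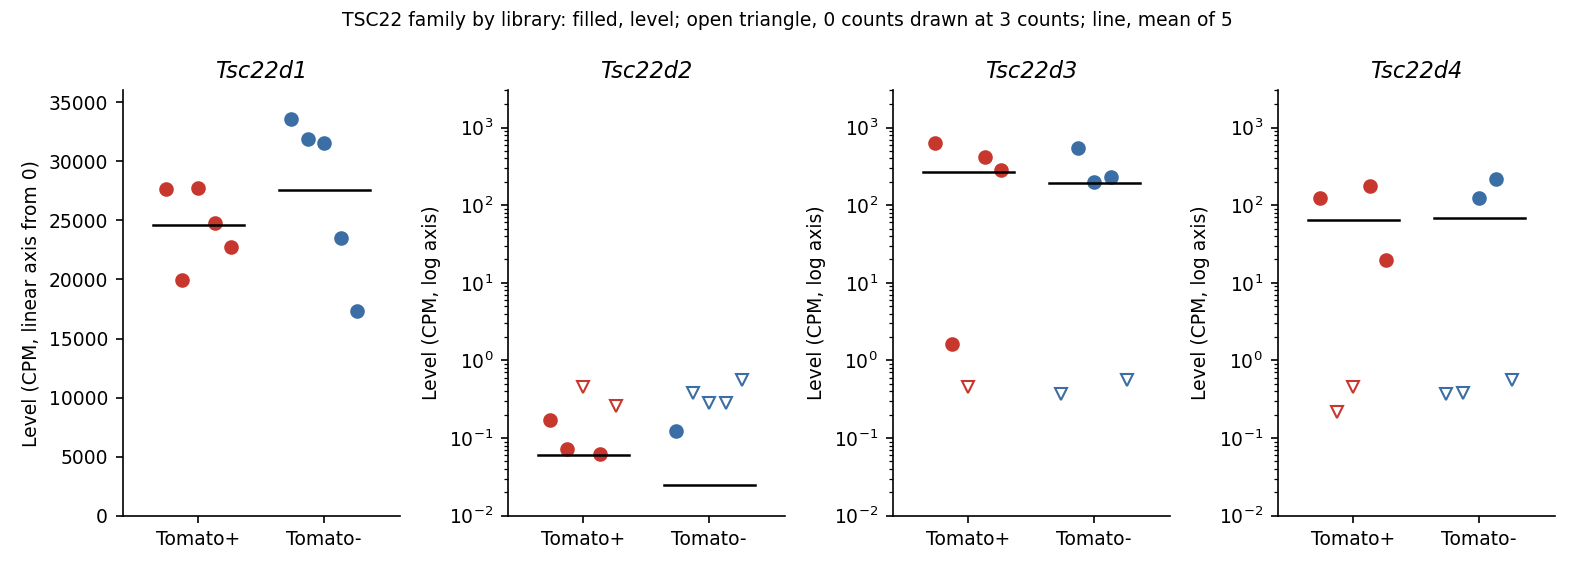
Level of each TSC22 family gene in CPM for Tomato+ (left in each panel) and Tomato- libraries (right), with a linear axis from 0 for Tsc22d1 and log axes for the others. Filled points are libraries, open triangles are libraries with 0 counts drawn at the level of 3 counts, and lines are means of 5 libraries. Tsc22d1 sits between 17334 and 33546 CPM in all libraries, whereas Tsc22d3 and Tsc22d4 range from 0 to 633 and from 0 to 217 CPM, and Tsc22d2 has at most 2 counts.

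In edgeR's quasi-likelihood test, the log2 fold change of Tsc22d1 (Tomato+ over Tomato-) was 0.06 (SE 0.187, 95% interval -0.34 to 0.45, Benjamini-Hochberg adjusted p = 0.9996). That interval covers 0.790-fold to 1.37-fold, so a 2-fold difference either way lay outside it. None of the 3 members tested was called. Across all 1016 genes tested, 0 were called at an adjusted p under 0.05 (0% of those tested), 9 had an unadjusted p under 0.05, and DESeq2 called 1 gene, which was no member of the family. The median log2 fold change of all genes tested was 0.21, and edgeR's TMM scaling put the genes' estimates 0.21 (median) above those from scaling by total counts. Relative to the median of all genes, the estimate of Tsc22d1 was thus lower. With total counts the log2 fold change of Tsc22d1 was -0.17 (SE 0.158), so its sign depended on the scaling, and it was -0.06 without Tomato- replicate 5 and -0.11 without Tomato- replicates 1, 2 and 5. TMM factors ran from 0.857 to 1.04 in Tomato+ and from 0.905 to 1.34 in Tomato-, with the 3 highest in those same 3 libraries.

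The share of counts taken by Tsc22d1 was compared directly as well. On log2(CPM + 1) the difference, Tomato+ minus Tomato-, was -0.13, with a two-sided exact permutation p of 0.532 over 252 assignments of the libraries (smallest possible p 0.00794, n = 5 each). Without Tomato- replicate 5 the difference was -0.29 (exact permutation p = 0.0952, 5 against 4 libraries), and on the TMM scale it was 0.11 (exact permutation p = 0.730). None of these differences passed.

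By mean CPM over the 10 libraries, the measure by which Tsc22d1 was chosen, it had rank 6 at 26066 CPM. Fth1, the ferritin heavy chain, stood just above it at 28573 CPM and Cd9, a tetraspanin of the platelet surface, just below it at 25196 CPM. The last row inside the 10 was Ftl1, the ferritin light chain, at 11634 CPM, and the first outside was Nrgn, which encodes neurogranin, at 11274 CPM. Within single libraries Tsc22d1 ranked 5, 8, 6, 7 and 6 in Tomato+ replicates 1 to 5 and 4, 4, 4, 6 and 8 in Tomato- replicates 1 to 5. Its coefficient of variation over the 10 libraries, the SD divided by the mean, was 20.5%, the third highest among the 10 rows, after the ribosomal RNA precursor Rn45s (36.3%) and Ftl1 (22.4%). Gng11, a G protein gamma subunit, varied least of them at 8.20%. Within groups the coefficient for Tsc22d1 was 13.5% in Tomato+ and 25.1% in Tomato-.

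Tsc22d3, the glucocorticoid-induced member, had counts in 4 of 5 Tomato+ and 3 of 5 Tomato- libraries. Its levels were 633, 1.61, 0, 421 and 282 CPM in Tomato+ replicates 1 to 5, against 0, 537, 198, 231 and 0 CPM in Tomato- replicates 1 to 5. Each group held libraries at 198 CPM or more and libraries at or near 0, and the ranges overlapped almost fully. A count of 0 would allow at most 0.461 CPM in the Tomato+ library without counts and 0.368 and 0.554 CPM in the Tomato- libraries without them. These limits, from 3 counts per library, cover counting error only, since reads amplified without molecular identifiers are not independent molecules. The log2 fold change was 0.69 (SE 2.41, 95% interval -4.41 to 5.80, edgeR adjusted p = 0.9996), so neither a large difference nor its absence could be shown. It was 0.03 without Tomato+ replicate 1 and 1.24 without Tomato- replicate 2, and 0.21 without Tomato- replicates 1, 2 and 5.

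Lymphocytes are known for high Tsc22d3 levels, so their markers are given beside it. Of 10 B, T and NK cell markers in the table, 2 had any count, Cd37 and Nkg7, where 20% of all genes in the table had one. Cd79a and Cd3e were at 0 in every library. In 4 of the 7 libraries with Tsc22d3, Tomato+ replicates 1 and 2 and Tomato- replicates 2 and 3, all 10 markers were at 0. The markers summed to 115 CPM in Tomato+ replicate 4, the highest of any library, 38.2 CPM in Tomato+ replicate 5 and 20.7 CPM in Tomato- replicate 4. All libraries with a count of these markers thus held Tsc22d3, and the libraries without Tsc22d3 had none of the markers. Tomato+ replicate 1, with the highest Tsc22d3 level of the series, had none of these markers. Neutrophil markers summed to 229, 0, 532, 0 and 140.3 CPM in Tomato+ replicates 1 to 5. In Tomato- replicates 1 to 5 they summed to 0, 0, 102, 241 and 276 CPM. The highest sum of each group, in Tomato+ replicate 3 and Tomato- replicate 5, lay in a library without Tsc22d3. The part of other blood cells in the Tsc22d3 level was not tested.

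Tsc22d4, one of the members whose long form binds NRBP1, was detected in 5 libraries. It had 123, 0, 0, 179 and 19.8 CPM in Tomato+ replicates 1 to 5, against 0, 0, 123, 217 and 0 CPM in Tomato- replicates 1 to 5. The mean was 64.5 ± 82.0 CPM in Tomato+ and 67.9 ± 98.8 CPM in Tomato- (SD, n = 5 each), and in both groups the SD exceeded the mean. Its log2 fold change was -0.14 (SE 2.81, 95% interval -6.10 to 5.82, edgeR adjusted p = 0.9996). It ran from -1.11 without Tomato+ replicate 4 to 1.19 without Tomato- replicate 4, was -1.51 without Tomato- replicates 1, 2 and 5, and was 0.02 with RLE size factors, so no direction can be given.

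Tsc22d2, the longest of the 4 genes by merged exons, was barely present in the counts. Tomato+ replicates 1, 2 and 4 had 2, 1 and 1 counts and Tomato- replicate 1 had 1 count, against 0 in the other 6 libraries. The 5 counts (exact Poisson 95% interval 1.62 to 11.7) set beside 2643218 counts of Tsc22d1 amount to 1.89 per 1000000. That interval, too, covers counting error of amplified reads and not the spread between libraries. Tsc22d2 is the paralog whose stretch printed above is most like that of Tsc22d1, and the sources used here do not say how reads with several alignments were counted. Every library was at or under the 3-count limit, and the gene did not pass the expression filter, so no fold change is given.

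Taken as a share of the family, Tsc22d1 held 98.7 ± 1.26% of the 4 genes' counts in Tomato+ libraries and 99.1 ± 0.887% in Tomato- libraries (SD, n = 5 each). Tsc22d1 was chosen for its abundance and the others as its paralogs, so its lead over them is a description. Levels between genes were compared per kb of merged exons. On that scale Tsc22d1 averaged 2898 ± 595 CPM per kb over all 10 libraries, Tsc22d3 53.1 ± 54.8, Tsc22d4 8.81 ± 11.4 and Tsc22d2 0.00381 ± 0.00555 (SD, n = 10). The mean level of Tsc22d1 was 54.6 times that of Tsc22d3, or 65.1 times by the longest annotated transcript and 270.5 times by the shortest coding transcript. Its lowest library (1927 CPM per kb) lay above the highest of Tsc22d3 (146 CPM per kb). Tsc22d3 was higher per kb than Tsc22d4 in the 7 libraries that held it, and the other 3 had neither. The difference over all 10 libraries was 44.3 ± 50.8 CPM per kb (mean and SD). When the shortest coding transcript set the length, Tsc22d4 was higher in 2 of those 7. These shortest transcripts have 398 bases for Tsc22d1, 952 for Tsc22d3 and 563 for Tsc22d4. Transcripts with an incomplete coding sequence were not left out there, so these lengths may be too short.

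Tsc22d3 and Tsc22d4 were both present in 5 libraries, Tsc22d3 alone in 2 and Tsc22d4 alone in none, and 3 libraries had neither. Whether this overlap exceeds chance was not tested. Libraries with Tsc22d4 had 1243 to 2450 detected genes and 10568535 to 16179973 counts, and those without it had 807 to 1421 genes and 5411417 to 13694463 counts. The 3 libraries without Tsc22d3 had 807 to 1118 detected genes and totals of 5411417 to 8158159, against 978 to 2450 genes and totals of 7994939 to 16179973 in the 7 with it. After every library was thinned at random to the smallest total, Tsc22d3 still had counts in 7 libraries and Tsc22d4 in 5, with at least 7 and 111 counts in them. Before thinning they had at least 22 and 227 counts where found, so thinning could hardly bring them to 0. It also removes amplified reads rather than molecules, so it cannot decide what part depth plays. The part that the number of detected genes plays in these patterns was not tested.

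**Figure D2:**
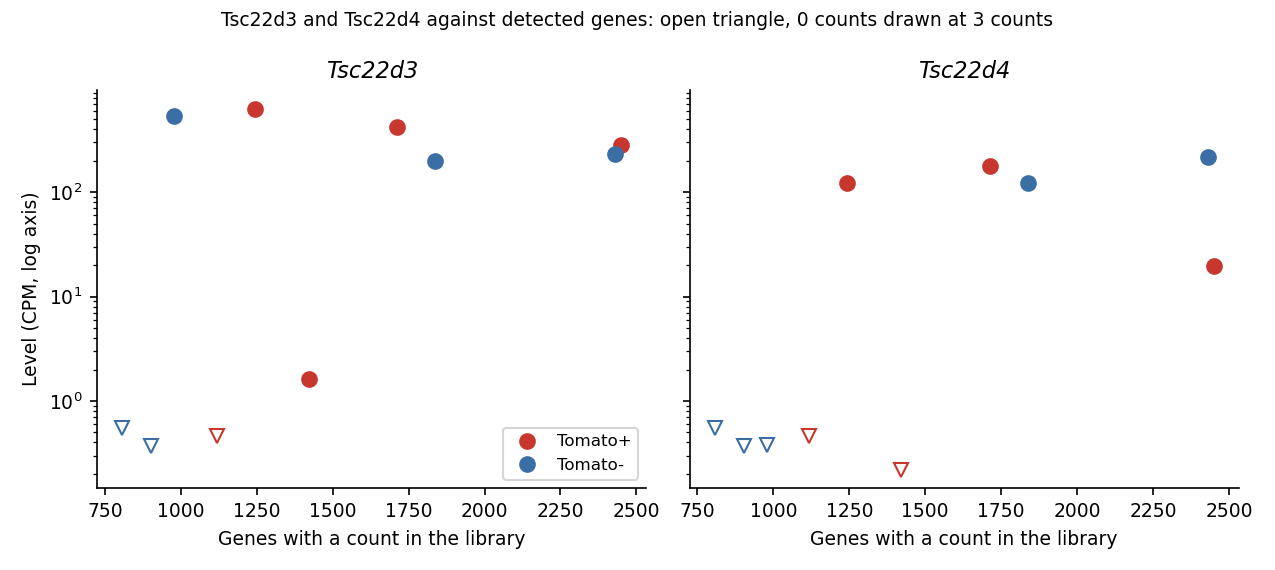
Level of Tsc22d3 and Tsc22d4 (CPM, log axis) in each library against the number of genes with a count there, for Tomato+ (red) and Tomato- (blue). Open triangles are libraries with 0 counts, drawn at 3 counts. The 3 libraries without Tsc22d3 have 807 to 1118 detected genes, and the 5 without Tsc22d4 have 807 to 1421.

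Such patchy detection was common at these levels. Of 642 genes with a mean of 100 to 1000 CPM, 104 (16.2%) had counts in every library, and the median gene was found in 8 libraries. Tsc22d3, with a mean of 231 CPM, was found in 7. Of 1425 genes with a mean of 10 to 100 CPM, 11 (0.772%) were in every library and the median was 3 libraries, and Tsc22d4, with a mean of 66.2 CPM, was found in 5. All 15 genes with a mean of 10000 CPM or more, Tsc22d1 among them, were in every library.

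**Figure D3:**
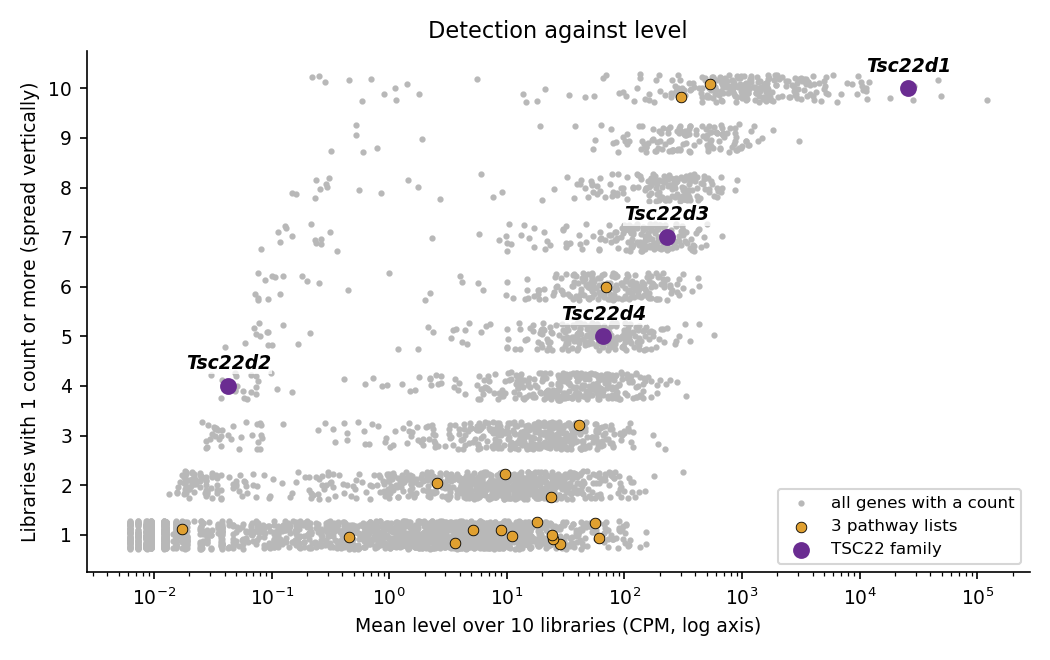
Number of libraries with 1 count or more (vertical, with points spread at random within each number) against mean level over 10 libraries (CPM, log axis), for all genes with a count (grey), the genes of 3 pathway lists (orange) and the TSC22 family (purple). Tsc22d1 lies at the upper right with counts in 10 libraries, Tsc22d3 and Tsc22d4 lie among many genes found in 7 and 5 libraries, and 2 pathway genes are found in all 10.

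Genes that act with the family were read from 3 pathway lists. Of all 23420 genes in the table, 4692 (20%) had a count in any library. For the WNK and NRBP1 pathway, 5 of 16 listed genes had one (31.2%), and none was found in every library. They summed to 173 ± 192 CPM in Tomato+ libraries, against 109.6 ± 157 CPM in Tomato- (SD, n = 5 each). Cab39, which encodes a scaffold protein that activates the WNK-dependent kinases SPAK and OSR1, had 0.0855, 303, 0, 191 and 89.3 CPM in Tomato+ replicates 1 to 5, against 0, 0, 57.2, 60.6 and 0 CPM in Tomato- replicates 1 to 5. It was the only tested gene of this list, and its log2 fold change of 2.31 (SE 2.83, 95% interval -3.69 to 8.31, edgeR adjusted p = 0.9996) did not pass. Nrbp1, the binding partner itself, had 283 CPM in Tomato- replicate 3 alone, Wnk4 had 243 CPM in Tomato+ replicate 4 alone, and Cul3, a ubiquitin ligase scaffold that acts on WNK kinases, had counts in 1 library of each group. Wnk1, Stk39 and Oxsr1, which encode the main kinases of the pathway, had 0 counts in all libraries.

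Glucocorticoid-responsive genes, which in other cells are induced together with Tsc22d3, were the second list. Of 20 listed genes 5 had a count (25%), and none passed the expression filter. Their summed level was 142 ± 317 CPM in Tomato+ and 118 ± 250 CPM in Tomato- (SD, n = 5 each), each carried by single libraries. Klf9, a glucocorticoid-induced transcription factor, had 565 CPM in Tomato- replicate 1, a library without Tsc22d3. Nfkbia, the inhibitor of NF-kappaB, had 411 CPM and Txnip, a thioredoxin inhibitor, 247 CPM in Tomato+ replicate 3, which also lacked Tsc22d3. Il1r2, a decoy receptor of interleukin 1, had 52.0 CPM in that same library. Fkbp5, Per1 and the glucocorticoid receptor gene Nr3c1 had 0 counts in every library.

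The TGF-beta pathway had its ligand Tgfb1 and the storage protein Ltbp1 in every library. Of 24 listed genes 9 had a count (37.5%) and 2 had one in every library, and both tested genes had an estimate above 0, where 58.3% of all genes tested did. Neither passed, and 1 of the 2 was above 0 with scaling by total counts, or without any one of Tomato+ replicates 1 and 5 and Tomato- replicates 1 and 3. Their median log2 fold change was 0.49, against 0.21 over all genes tested. The list summed to 1102 ± 673 CPM in Tomato+ libraries, against 809.5 ± 522 CPM in Tomato- (SD, n = 5 each).

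Tgfb1, the ligand that platelets release from their granules, had 449, 105, 87.9, 431 and 413 CPM in Tomato+ replicates 1 to 5, against 7.97, 267, 39.7, 382 and 859 CPM in Tomato- replicates 1 to 5. The Tomato- libraries enclosed the whole Tomato+ range, and the log2 fold change was 0.22 (SE 1.63, edgeR adjusted p = 0.9996), or -0.06 with scaling by total counts. Ltbp1, which binds latent TGF-beta, had 232, 149, 436, 1332 and 1024 CPM in Tomato+ replicates 1 to 5, against 283, 50.7, 715, 415 and 698 CPM in Tomato- replicates 1 to 5. These ranges overlapped too, with a log2 fold change of 0.76 (SE 1.14, edgeR adjusted p = 0.9996). Lrrc32, which displays latent TGF-beta on cell surfaces, had 235 CPM in Tomato+ replicate 4, and Smurf2, a ubiquitin ligase of the pathway, had 614 CPM in Tomato+ replicate 3 alone. Tgfbr2, which encodes the ligand-binding receptor, and Smad2 and Smad3, the signal carriers below it, had 0 counts in all libraries. Other receptor and signalling genes of the list had counts in 1 library each. These were Tgfbr1 (36.3 CPM, Tomato- replicate 2), Smad1 (110.4 CPM) and Ski (179.6 CPM) in Tomato- replicate 3, and Smad4 (4.53 CPM, Tomato- replicate 4). The zeros therefore do not show that this part of the pathway is absent.

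**Figure D4:**
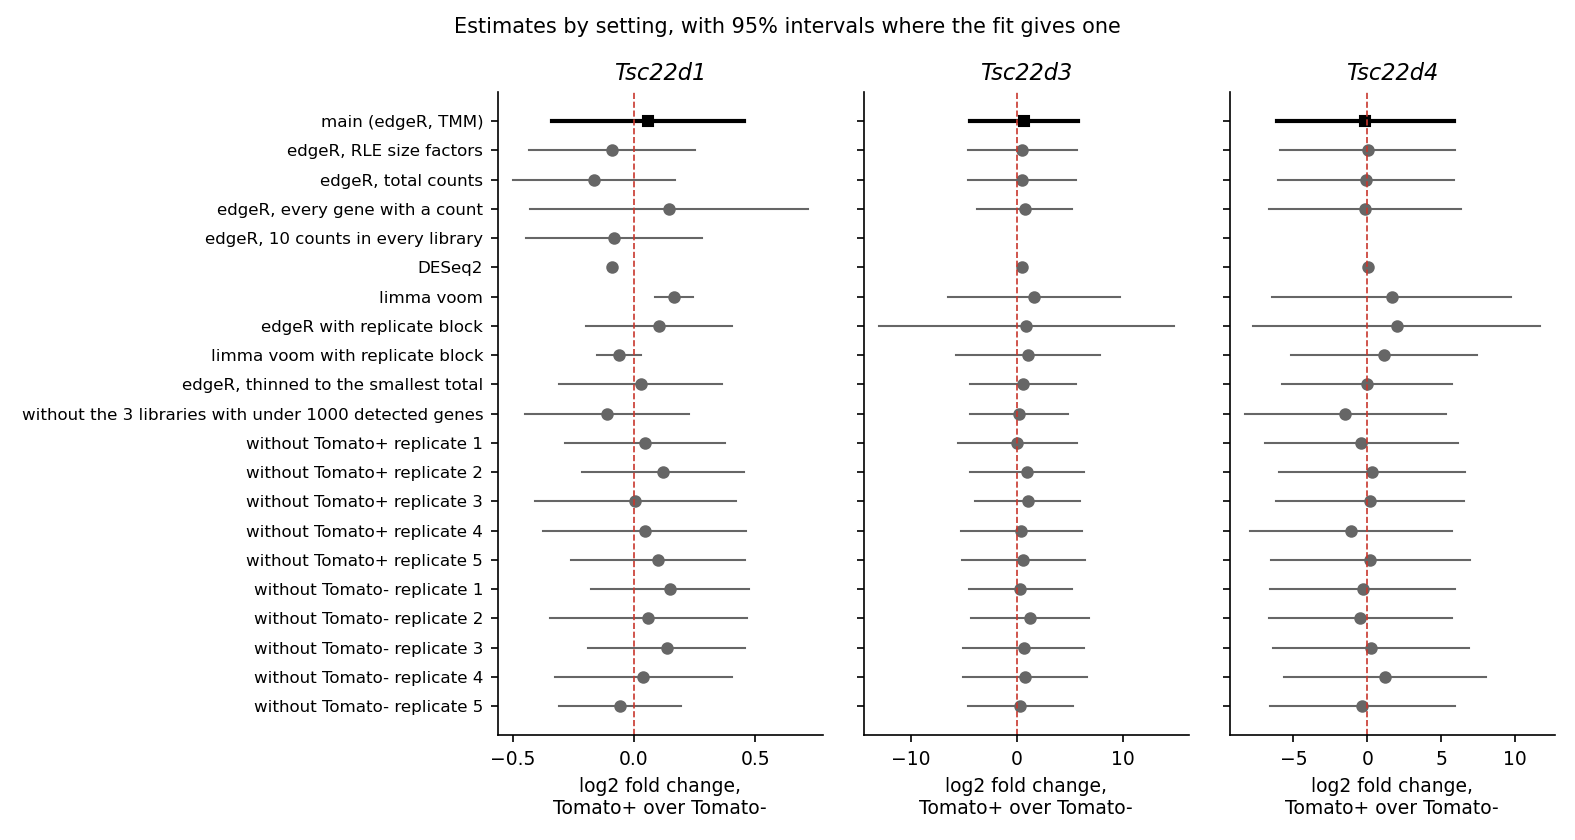
Log2 fold change, Tomato+ over Tomato-, of Tsc22d1, Tsc22d3 and Tsc22d4 (panels with separate horizontal axes) under each fit, with 95% intervals where the fit gives one and the edgeR fit with TMM scaling at the top. Tsc22d1 stays between -0.17 and 0.16 with points on both sides of 0, and the intervals drawn for Tsc22d3 and Tsc22d4 span several log2 units.

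Likeness to Tsc22d1 was measured as the SD, over the 10 libraries, of the log2 ratio of a gene to Tsc22d1, among the other 224 genes with 10 counts or more in every library. This describes these libraries only, and all the ratios share the values of Tsc22d1. A gene at a constant level would score the SD of log2 Tsc22d1 itself (coefficient of variation of its CPM 20.5%). A small SD alone therefore does not show that a gene rises and falls with Tsc22d1. Predicted gene models were left out of the naming. The median SD was 0.768. No library's log2 CPM of Tsc22d1 lay that far from its mean (range -0.5596 to 0.3929). A gene at a constant level would therefore also score under this median. The 5 smallest SDs belonged to Itm2b, an integral membrane protein (0.249), Cd9 (0.252), Vwf, which encodes von Willebrand factor (0.264), Cyb5, a cytochrome b5 (0.299), and Myl9, a regulatory myosin light chain (0.303). Even for these genes the ratio varied from 1.70-fold to 1.94-fold between its lowest and highest library. The ratio of Cd9 to Tsc22d1 ran from 0.765 to 1.31, so which of these neighbours in abundance was higher changed from library to library. Itm2b averaged 4241 ± 472 CPM in Tomato+ libraries, against 3839 ± 1024 CPM in Tomato- (SD, n = 5 each). Vwf averaged 4964 ± 463 CPM in Tomato+ libraries, against 5240.5 ± 1063 CPM in Tomato-.

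**Figure D5:**
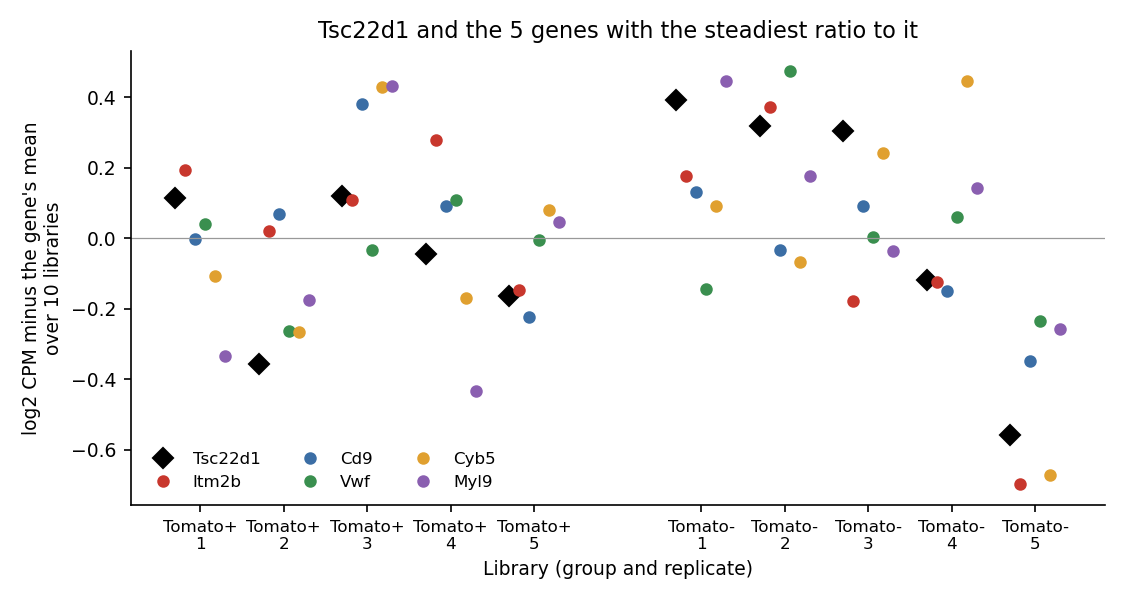
Log2 CPM minus the gene's own mean over 10 libraries (vertical axis) for Tsc22d1 (black diamonds) and the 5 genes with the steadiest ratio to it (coloured points), by library with Tomato+ on the left. The 5 genes were chosen by their ratio to Tsc22d1 in these same libraries, so likeness to it is partly built in. In Tomato- replicate 5, which has the lowest Tsc22d1 level (17334 CPM), all 6 genes lie below their means. In Tomato- replicate 1, which has the highest (33546 CPM), Vwf lies below its mean and the others above. In Tomato- replicate 3, Tsc22d1 lies above its mean, and Itm2b and Myl9 lie below theirs.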

How the data were processed

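The deposited values are whole-number counts of reads for each gene symbol in 10 libraries, not normalized. Per the submitters' processing notes, the tools were Trimmomatic, FastQC, STAR and featureCounts (no version stated), with the build mm10. No source used here gives the annotation, the strand setting or the handling of multi-mapped reads. Groups and replicate numbers come from the titles. CPM are counts per 1000000 counts of all rows. Members, lists and tests were chosen with earlier results of these data known. Genes were named by rule: the members, the rows at rank 10 and 11 and next to Tsc22d1, the 4 most abundant genes of each pathway list, and the 5 with the steadiest ratio to Tsc22d1; others, such as list genes at 0 counts, were chosen after their values were seen.

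The main test was edgeR's quasi-likelihood test (version 4.0.16, under R 4.3.3, with robust estimation, TMM scaling, the default expression filter with minimum count 10 and minimum total 15, group as the sole term, Benjamini-Hochberg adjustment over all 1016 genes tested). Tested genes held 93.9 to 95.4% of counts. In edgeR fits, SE is the absolute log2 fold change divided by the root of its F statistic. Tsc22d1 was also tested by exact two-sided permutation on log2(CPM + 1), doubling the smaller tail. Alternatives used limma 3.58.1 and DESeq2 1.42.0 on the same filtered genes. The edgeR script was tested on simulated data. In all 45 library pairs the counts differed by more than sampling noise (chi-square per degree of freedom at least 451), so no pair was merged. Repeat libraries of 1 animal could differ as much. Gene coordinates, lengths and transcript sequences come from GENCODE M21 (GRCm38, the assembly named mm10); no protein sequence was used here.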

Additional observations from a re-analysis of the deposited data

Results flagged for a closer look

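Among 48 groups of 5 libraries, 2 for each of 24 genes named by rule, 13 had 1 library standing apart from the other 4 by Dixon's test. Chance flags about 1 group in 20, and a gene found in a single library of a group always stands out in this way. Within the family it was Tsc22d2 alone, at 0.123 CPM (1 count) in Tomato- replicate 1, with 0 in the other 4. No group of Tsc22d1, Tsc22d3 or Tsc22d4 was flagged.

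Of the WNK and NRBP1 list, Wnk4 stood apart at 243 CPM in Tomato+ replicate 4, Nrbp1 at 283 CPM in Tomato- replicate 3, and Cul3 at 39.0 CPM in Tomato+ replicate 5 and 58.1 CPM in Tomato- replicate 4. Of the glucocorticoid-responsive list, Nfkbia (411 CPM), Txnip (247 CPM) and Il1r2 (52.0 CPM) stood apart in Tomato+ replicate 3, Klf9 (565 CPM) in Tomato- replicate 1, and Nfkbia there as well at 0.123 CPM (1 count). Of the TGF-beta list, Lrrc32 stood apart at 235 CPM in Tomato+ replicate 4, with 0.307 CPM in the next highest library, and Smurf2 at 614 CPM in Tomato+ replicate 3. Fth1, the row above Tsc22d1 in abundance, reached 37583 CPM in Tomato- replicate 2, against at most 27996 CPM in the other Tomato- libraries.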

How the results depend on the processing

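No family gene passed in any of up to 20 other settings, and Tsc22d3 kept an estimate above 0 in all 19 that tested it. These settings reuse the same libraries, and the SE of Tsc22d3 was 2.24 or more in each, so its constant sign shows no direction. In the main fit 58.3% of all genes tested had an estimate above 0. Of 20 other settings for Tsc22d1, 7 turned its sign: the log2 fold change was -0.0921 with RLE size factors and with DESeq2, -0.17 with total counts, -0.0835 on genes with 10 counts in every library, -0.0628 with limma voom and the replicate block, -0.11 without Tomato- replicates 1, 2 and 5, and -0.0569 without Tomato- replicate 5 alone. Leaving out 1 library gave -0.0569 to 0.15 for Tsc22d1, 0.03 to 1.24 for Tsc22d3 and -1.11 to 1.19 for Tsc22d4. Without Tomato- replicates 1, 2 and 5, Tsc22d3 had 0.21 and Tsc22d4 -1.51. Tsc22d4 also turned to 0.0169 with RLE size factors and with DESeq2, 1.63 with limma voom, 1.97 in edgeR with the replicate block and 1.15 in limma voom with the replicate block. Limma voom without the block gave Tsc22d1 0.16 (unadjusted p = 0.000814, adjusted p = 0.1699). The permutation difference of Tsc22d1 was 0.11 on the TMM scale and -0.29 to -0.05 with 1 library left out. Genes called were 1 in DESeq2 (Tug1), 1 in limma voom (Ctla2a), 2 in limma voom with the replicate block (Rn45s and Fth1) and 0 in every edgeR fit, also with 1 library left out. With the shortest coding transcript as length, Tsc22d3 exceeded Tsc22d4 by 125 ± 228 CPM per kb (SD over 10 libraries). The count of TGF-beta genes above 0 was 1 of 2 with total counts and 1 to 2 with 1 library left out. The WNK list had 1 of 1 tested gene above 0, or 1 of 2 without Tomato- replicates 1, 2 and 5. No glucocorticoid gene passed the expression filter with total counts, without Tomato- replicates 1, 2 and 5, or with 1 library left out. The lists were not counted in the other settings, among them the fit with no expression filter. The cause of the changes between settings was not tested, beyond the shift between scalings given with the results. With no expression filter, Tsc22d2 entered the edgeR test with an adjusted p of 0.7602.

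Nothing in the labels ties equal replicate numbers to 1 animal. Over 225 genes, the correlations of same-numbered libraries' deviations from their group means were 0.0432, 0.254, -0.0222, 0.0982 and 0.0166. By this measure 1 of 5 Tomato+ libraries correlated best with its own number. Technical spread could hide a shared animal, so these values cannot decide whether the libraries are paired. With the replicate block in edgeR, Tsc22d1 had a log2 fold change of 0.10 (adjusted p = 0.9966) and Tsc22d3 0.88 (adjusted p = 0.9966). Tsc22d3 and Tsc22d4 varied widely between libraries, and this spread limits what can be said of them. What part of it is technical was not tested.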
